A study of Mus musculus with 14 samples.

Results

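Cytosolic ribosomal protein genes of mouse muscle stem cells (MuSCs) were followed through input RNA and through immunoprecipitates of m6A, Igf2bp3 and Lin28a. They are the genes whose symbol starts with Rpl or Rps and a number, together with Rplp0, Rplp1, Rplp2 and Rpsa, leaving out kinases, binding proteins and genes named as pseudogenes. The input table held 86 of them among 14837 genes: 43 of the large subunit, 31 of the small subunit, 3 of the P stalk and 9 paralogues or copies. RefSeq lists 83 of the 86 as protein coding and 3 as pseudogenes (Rpl6l, Rps3a2 and Rps3a3).

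The Lin28a+ group was isolated by cell sorting. The donor mice carried Lin28a-CreERT2 and LSL-tdTomato, so that muscle cells in which Lin28a was expressed while Cre was active keep a fluorescent reporter. They were set against MuSCs whose genotype is labelled Control. Both were cultured on Matrigel in medium with serum. Each group had 2 libraries of input RNA, 2 of m6A-RIP and 2 of Igf2bp3-RIP, and Lin28a+ MuSCs had 2 libraries of Lin28a-RIP. The sources used here do not give the age of the mice, the dosing that activated Cre, how control cells were sorted, or whether the 2 libraries of a group came from separate cultures or animals, so p-values measure only the spread between these libraries. In the table of input counts, both columns for Lin28a+ MuSCs are headed with m6A-RIP names. They were read as input RNA from the libraries' labels, and every RNA change and every change relative to input below rests on that reading. The reporter marks a history of Lin28a expression, and Lin28a itself was not analysed here.

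Ribosomal proteins assemble with ribosomal RNA into the small subunit, which reads the mRNA, and the large subunit, which joins amino acids. Their mRNAs are among the most abundant of a growing cell, and most start with a run of pyrimidines, the 5' terminal oligopyrimidine (TOP) motif, through which mTOR signalling and the protein Larp1 control their translation together. Stem cells that leave quiescence and divide are known to make more ribosomes.

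Such runs lie near the annotated start of many members. The lines below give 30 bases of GRCm38.p6 from RefSeq, 15 before and 15 from the annotated start, for 6 members the results turn on and 2 without a run. Capitals mark a C followed by at least 5 more C or T.
Rps2 chr17:24720048-24720077 plus strand: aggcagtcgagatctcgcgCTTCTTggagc
Rpl18 chr7:45718056-45718085 plus strand: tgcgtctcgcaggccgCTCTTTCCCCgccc
Rplp2 chr7:141447636-141447665 plus strand: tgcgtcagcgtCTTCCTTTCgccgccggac
Rpl35 chr2:39005117-39005146 minus strand: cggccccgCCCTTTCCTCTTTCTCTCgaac
Rpl15 chr14:18270972-18271001 minus strand: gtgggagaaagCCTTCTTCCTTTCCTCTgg
Rps6 chr4:86857353-86857382 minus strand: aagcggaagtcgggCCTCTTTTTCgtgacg
Rplp0 chr5:115559452-115559481 plus strand: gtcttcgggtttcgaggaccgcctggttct
Rpl22 chr4:152325711-152325740 plus strand: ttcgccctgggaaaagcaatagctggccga

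Of the 63 members with a start sequence, 50 (79.4%) held such a run on the transcribed strand, beginning between 20 bases before and 30 bases after an annotated start. Of all 27025 genes with a start sequence 40.2% did, and of the 69 mitochondrial ribosomal protein genes with one 46.4% did. On the opposite strand the shares were 28.6% of the members and 45.3% of all genes. The motif CCGGAAG, bound by ETS factors and searched on both strands over 300 bases, was present in 25 of the 63 members (39.7%), in 9.93% of all genes and in 37.7% of 69 mitochondrial ribosomal protein genes. Its reverse complement can overlap a run. By the RNA test described below, which called 28.1% of all genes higher and 28.7% lower in Lin28a+ MuSCs, 44 of the 50 members with a run rose and 2 fell, with a median log2 fold change of 0.31. Of the 13 without a run 11 rose, with a median of 0.31.

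Estimated counts in the input summed to between 4842915 and 6220960 per library, and counts in the RIP tables to between 9215355 and 36610494. The cells carried myogenic markers, summing to 9038 and 9454 CPM (counts scaled to the library total) in the control libraries and 11625 and 11791 CPM in the Lin28a+ libraries. Of these 8 markers 3 rose and 3 fell by edgeR, with a median log2 fold change of -0.023. Myog (1.86 ± 0.022, SE) was among those that rose and Myf5 (-1.21 ± 0.029) among those that fell. Endothelial markers summed to at most 0.651 CPM and macrophage markers to at most 2.63 CPM in every library. Fibro-adipogenic markers summed to 4.43 and 6.96 CPM against 15.8 and 13.3 CPM, of which Ly6a made up 3.84 and 4.58 against 13.6 and 12.7 CPM, while Pdgfra was at most 0.235 CPM. The list of pericyte and smooth muscle genes summed to 5316 and 5400 against 7489 and 7501 CPM, nearly all of it Acta2. Of the 3 tested, 2 rose, Acta2 (0.46 ± 0.019) and, at few counts, Pdgfrb (1.27 ± 0.19). Rgs5 fell, also at few counts (2.38 and 2.09 against 0.198 and 0.206 CPM, -3.35 ± 0.41). Cdh5, Kdr and Tek (endothelial), Adgre1 (macrophage) and Dcn and Lum (fibro-adipogenic) were not listed in the table. The part of these markers in the ribosomal protein values was not tested.

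Ribosomal protein mRNAs took a larger share of the counts in the columns read as Lin28a+ input. The 86 members held 6.67% and 6.68% of the input counts in the 2 control libraries, and 8.52% and 8.35% in the 2 Lin28a+ libraries. The mean share was 6.68% ± 0.0071 (SD, n = 2) in control and 8.43% ± 0.12 in Lin28a+ MuSCs, a ratio of 1.26. In m6A-RIP the shares were 1.15% and 1.17% against 1.26% and 1.31%, a ratio of 1.10, and 1.21 without the 10 rows with the most m6A-RIP counts. The Lin28a+ libraries lay above both control libraries in input RNA and in m6A-RIP. With 2 libraries against 2, an exact two-sided permutation test cannot give a p below 0.333, which is the value obtained in both. In the input, the 10 genes with the most counts, none of them a member, held 21.7% and 19.95% of the control input and 17.4% of each Lin28a+ input library. Without them the shares were 8.52% and 8.35% in control and 10.3% and 10.1% in Lin28a+ MuSCs, a ratio of 1.21. In bulk RNA, a change in the number of cells of one type and a change in the RNA per cell cannot be told apart.

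**Figure D1:**
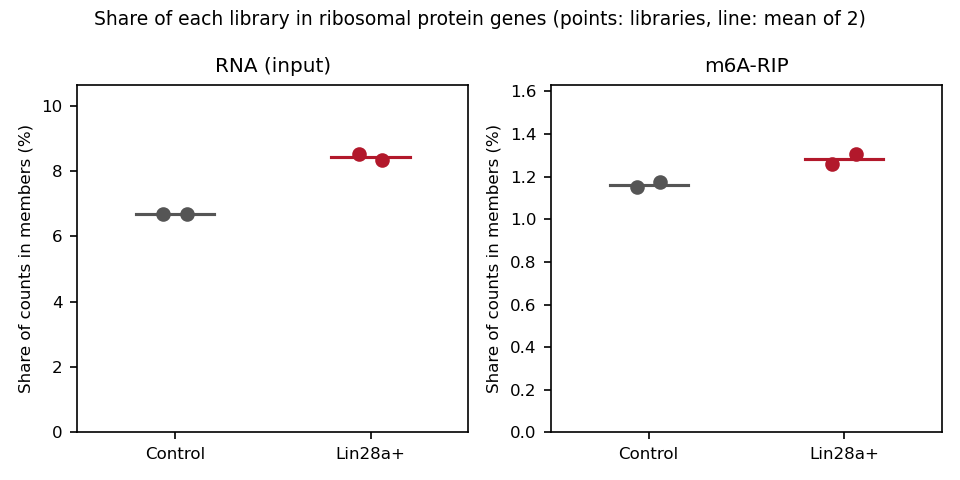
Share of counts in rows listed under ribosomal protein genes (y axis, percent, from 0) by group (x axis) for input RNA and m6A-RIP. Points are libraries and lines the mean of 2. Both Lin28a+ libraries lie above both control libraries in both assays, at 8.52% and 8.35% against 6.67% and 6.68% in RNA.

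Gene by gene, the rise was broad and small. From here on, values of 4 libraries name the 2 control libraries first and then the 2 Lin28a+ libraries, and ± gives the SE of a log2 fold change. edgeR's quasi-likelihood test with Benjamini-Hochberg adjustment over all 11317 genes tested called 77 of 85 members (1 did not pass the filter on low counts), where 56.8% of all genes were called in either direction. Of these, 75 members rose, where 28.1% of all genes did, and 2 fell, where 28.7% of all genes did. The median log2 fold change of the members was 0.31, a 1.24-fold difference, against 0.0098 over all genes. The 75 members that rose spanned 0.12 (Rps3a1) to 0.69 (Rpl37rt), and 72 of them exceeded 0.2 while 5 exceeded 0.5. In 81 of the 85 members both Lin28a+ libraries lay on the same side of both control libraries, where 84.6% of all genes tested did.

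In the small subunit all 31 core members rose, with a median of 0.31. Rps2, which lies near the entry of the mRNA channel, was at 1361 and 1434 CPM in the control libraries and at 2208 and 2176 CPM in the Lin28a+ libraries (log2 fold change 0.62 ± 0.025, adjusted p = 2.5e-05). Rps14, a protein of the platform, was at 430 and 448 against 648 and 651 CPM (0.54 ± 0.023, adjusted p = 2.9e-05). Rps3a1, the small subunit member with the smallest rise, was at 4207 and 4230 against 4695 and 4661 CPM (0.12 ± 0.021, adjusted p = 0.0043).

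Rpsa, also known as the laminin receptor, was at 1488 and 1535 against 2087 and 2105 CPM (0.44 ± 0.020, adjusted p = 3.6e-05). In each of these small subunit genes the Lin28a+ libraries lay above the control libraries, and the gap between groups was wider than that between the 2 libraries of a group.

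In the large subunit 37 of 43 core members rose and 2 fell, with a median of 0.29. Rpl18 was at 302 and 312 CPM in control libraries against 454 and 450 CPM in Lin28a+ libraries (0.53 ± 0.024, adjusted p = 3.4e-05). Rpl5, which carries 5S ribosomal RNA and binds the p53 regulator Mdm2, was at 65.7 and 60.1 against 57.0 and 51.8 CPM (-0.23 ± 0.077, adjusted p = 0.0482). Rpl4, which reaches into the exit tunnel for the growing peptide, was at 1939 and 1989 against 1930 and 1912 CPM (-0.061 ± 0.021, adjusted p = 0.0498). Both falls lay just inside the threshold. They were lost under DESeq2 (adjusted p = 0.344 and 0.314), with total counts in place of TMM factors (0.0508 and 0.362) and with TMM factors computed without the members (0.0511 and 0.0658).

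A few large subunit members stayed outside the threshold. Rpl22, an RNA-binding subunit that cells can lack, was at 185 and 183 against 199 and 193 CPM, with a 95% interval of the log2 fold change from -0.041 to 0.16. Rpl23 was at 582 and 574 against 619 and 597 CPM, with an interval from -0.036 to 0.12. Rpl10 (interval -0.051 to 0.30) and Rpl12 (-0.063 to 0.44) were also not called.

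The P stalk is the protrusion of the large subunit that recruits elongation factors, and all 3 of its proteins rose. Rplp0 was at 3002 and 3110 against 3898 and 3939 CPM (0.33 ± 0.020, adjusted p = 8.7e-05). Rplp1, whose deposited value was the largest of the members on this scale, which is not set per length, was at 6871 and 6644 against 8342 and 8089 CPM (0.25 ± 0.034, adjusted p = 0.0015). Rplp2 was at 335 and 333 against 469 and 455 CPM (0.44 ± 0.030, adjusted p = 0.00012). The groups did not overlap in any of them.

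**Figure D2:**
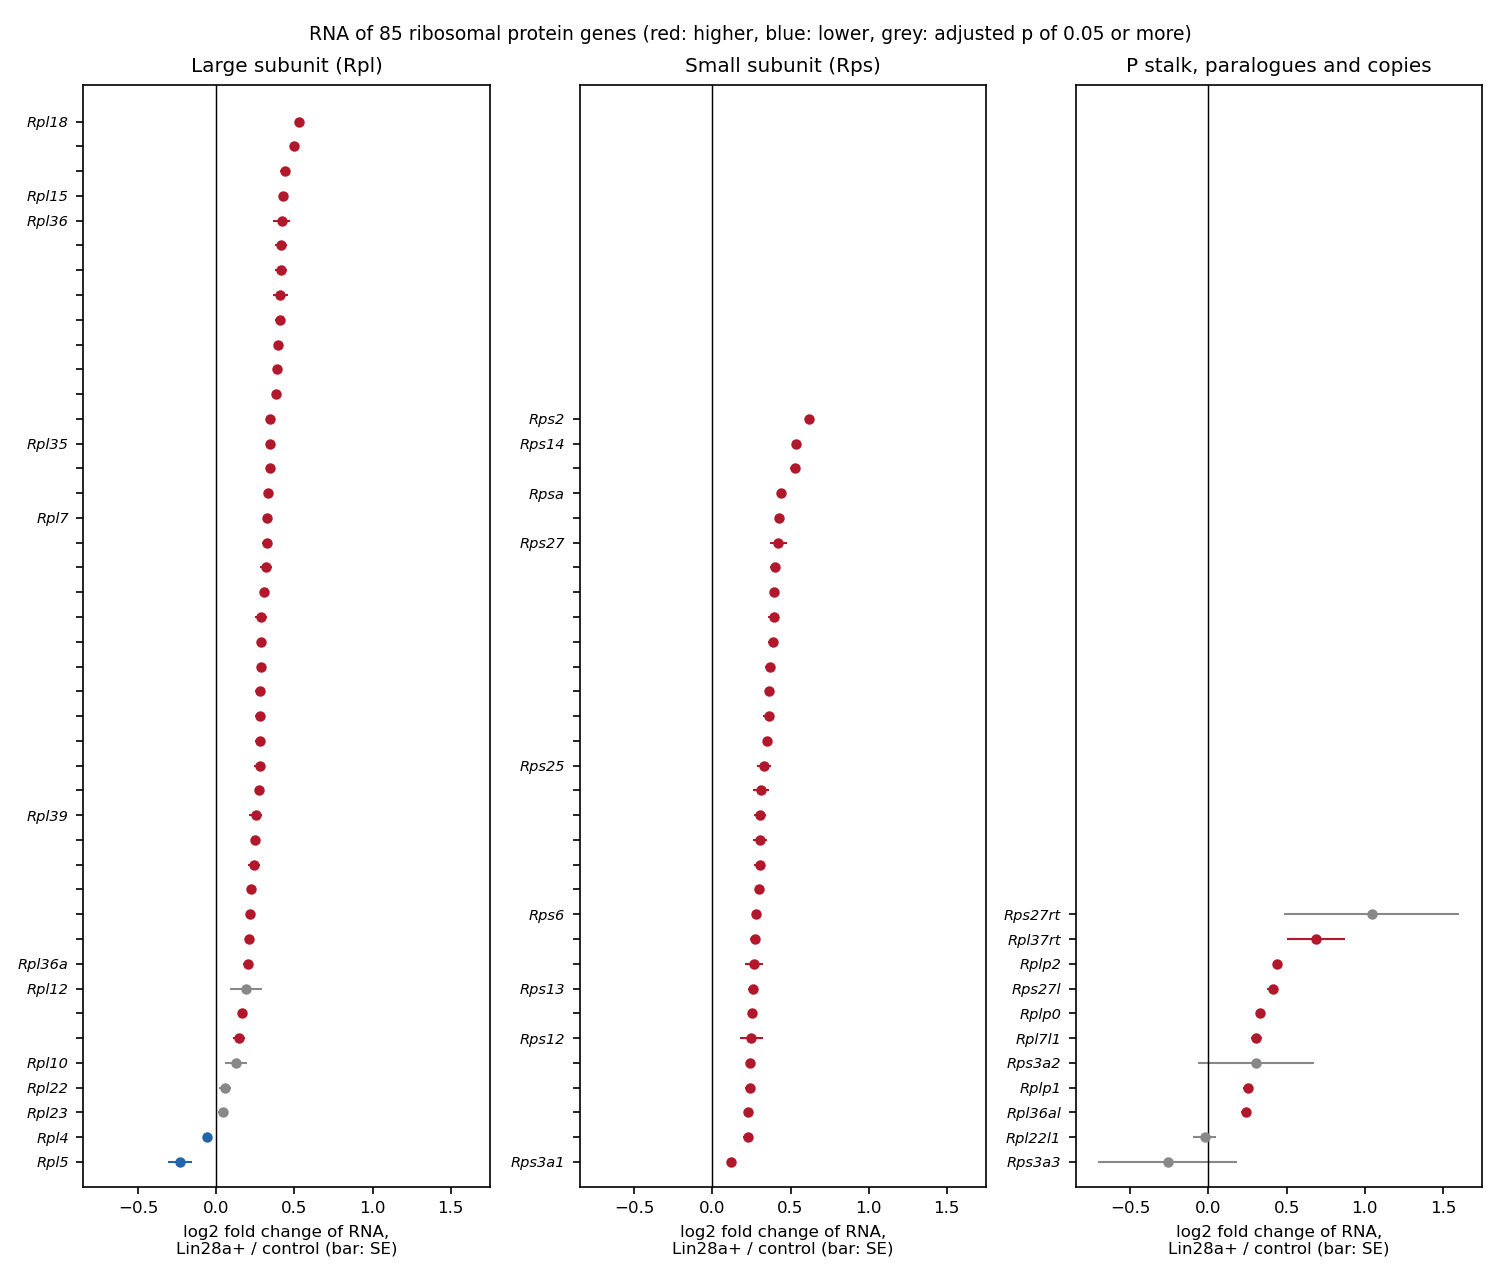
The log2 fold change of RNA between Lin28a+ and control MuSCs (x axis, bars SE) of 85 members (y axis, the members described in the text labelled), split into large subunit, small subunit, and P stalk with paralogues and copies. All 31 small subunit members lie to the right of 0, Rpl4 and Rpl5 are the 2 members called lower, and Rps27rt and Rps3a3, with few counts, have the widest bars.

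Paralogues let a tissue swap one ribosomal protein for a close relative. Rpl22l1, the relative that Rpl22 is known to hold down, was at 70.7 and 66.3 against 70.1 and 67.2 CPM, with overlapping groups (-0.026, 95% interval -0.21 to 0.16). Rps27l, a known p53 target, was at 148 and 149 against 206 and 197 CPM (0.41 ± 0.034, adjusted p = 0.00024), and Rps27 at 264 and 247 against 360 and 336 CPM (0.42 ± 0.054, adjusted p = 0.0012). Both members of that pair rose.

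Rpl36al was at 194 and 189 against 233 and 227 CPM (0.24 ± 0.034, adjusted p = 0.0019) and Rpl36a at 241 and 236 against 284 and 276 CPM (0.20 ± 0.034, adjusted p = 0.0036). With the deposited values of its pseudogene row added, which may be on another scale, Rpl36a changed by 0.52 ± 0.053 (adjusted p = 0.00045). Under DESeq2 neither call of this pair was kept (adjusted p = 0.0633 and 0.094). Rpl7l1, known for its role in assembly of the large subunit, was at 111 and 117 against 145 and 143 CPM (0.31 ± 0.033, adjusted p = 0.00061), and Rpl7 at 742 and 780 against 966 and 977 CPM (0.32 ± 0.024, adjusted p = 0.00016). No difference between the partners of a pair was tested. In m6A-RIP Rpl36al (0.27 ± 0.045) and Rpl36a (0.20 ± 0.040) rose, as did Rpl22 (0.17 ± 0.044).

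Retrocopies sat at the low end. Rpl37rt was at 33.3 and 34.3 against 65.7 and 44.8 CPM (0.69 ± 0.19, adjusted p = 0.023), and Rps27rt at 2.73 and 11.0 against 10.0 and 20.1 CPM with overlapping groups. Rpl6l, Rps3a2 and Rps3a3 had the lowest deposited values. Rpl6l did not pass the filter, and Rps3a2 and Rps3a3 were not called. Rps3a3 was at 5.59 and 3.08 against 4.93 and 2.35 CPM, Rps3a2 at 2.06 and 2.91 against 4.08 and 2.10 CPM, and Rpl6l at 1.92 and 1.44 against 2.41 and 0.600 CPM, all with overlapping groups. Both retrocopies had m6A-RIP rows that rose, Rpl37rt from 165 and 164 to 189 and 189.97 CPM (0.31 ± 0.039) and Rps27rt from 167 and 162 to 197 and 213 CPM (0.42 ± 0.047). Reads of such copies cannot be told apart from those of their parents with certainty.

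The same limit holds for 98 further rows of the input that carry the name of a member and the suffix of a pseudogene. Most were near 0 (87 had a mean under 100 counts). But 9 had a mean of at least 1000 counts, and each of these 9 deposited values exceeded that of its parent. Values of at most 6 significant digits filled 93 of the 98 pseudogene rows but 7 of the 86 member rows. How the values were formed is not given, so parents and pseudogene rows may not share a scale, which limits this comparison. Rpl10-ps3 was at 4318 and 4316 against 5746 and 5759 CPM (0.38 ± 0.021), while Rpl10, a late-joining subunit next to the peptidyl transferase centre, was at only 52.8 and 55.4 against 63.1 and 57.3 CPM. Rps12-ps3 was at 4819 and 4778 against 5443 and 5137 CPM (0.11 ± 0.036), while Rps12 was at 31.5 and 35.0 against 42.3 and 38.3 CPM (0.25 ± 0.073, adjusted p = 0.032). The values of Rpl10 and Rps12 are thus a small part of the deposited values listed under these names and their pseudogenes. Of the 44 pseudogene rows tested, 11 rose and 0 fell, where 28.1% of all genes rose and 28.7% fell. With pseudogene rows added to their parents, a step chosen after the values were seen, 76 members rose and 1 fell, the median was 0.31, and Rpl10 was called (0.38 ± 0.021, adjusted p = 5.6e-05). Rps12 then changed by 0.11 ± 0.036 (adjusted p = 0.040), and Rpl4 was not called (adjusted p = 0.0526). Such sums mix deposited values that may not share a scale.

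Other groups of genes for ribosome production are given beside the shares of all genes, 28.1% that rose and 28.7% that fell. Of 79 mitochondrial ribosomal proteins, which build a separate ribosome inside mitochondria, 70 rose and 1 fell, with a median of 0.42. Fau, which encodes a ribosomal protein fused to a ubiquitin-like protein, and Rack1, a scaffold on the small subunit, both rose (0.31 ± 0.038 and 0.40 ± 0.023). Of 53 assembly factors 27 rose and 6 fell, with a median of 0.25. Among them Emg1, a methyltransferase of the small subunit RNA, rose (0.83 ± 0.044), whereas Ncl, the nucleolar protein nucleolin, fell from 349 and 357 to 204 and 215 CPM (-0.79 ± 0.031, adjusted p = 2.3e-05).

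Of 11 genes of RNA polymerase I and its factors, 3 rose and 0 fell by the adjusted test, a share of rises near that of all genes. Other TOP mRNAs did not move in 1 direction: of 14, 7 rose and 5 fell, with a median of 0.054. Btf3, a subunit of the complex on nascent chains, rose (0.41 ± 0.024), and Tpt1, a growth-associated TOP mRNA, fell from 1624 and 1630 to 1219 and 1212 CPM (-0.45 ± 0.022). Of 11 regulators of TOP mRNAs 3 rose and 4 fell, also near the shares of all genes, among them Eif4ebp1, an inhibitor of translation that mTOR switches off (0.64 ± 0.034), and Larp4 (-0.76 ± 0.060).

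m6A is a methyl mark on adenosines of mRNA, and m6A-RIP sequences RNA fragments pulled down with an antibody against it. The m6A-RIP table listed 41 of the 86 members (47.7%), against 53.6% of all input genes. It held 19 of 43 large subunit, 15 of 31 small subunit, 1 of 3 P stalk members (Rplp2) and 6 of 9 paralogues. The members with and without a row had similar RNA medians, 0.30 and 0.31. In control MuSCs the median ratio of m6A-RIP CPM to input CPM was 0.542 in the 41 members and 1.68 over 7950 genes, and 35 of the 41 lay below the median of all genes. This ratio divides different kinds of count and ranks genes only roughly. A low input value raises it: Rps27rt, at 6.86 CPM of control input, had the highest ratio of the members (24.0). Rpl10, with most values listed under its pseudogene, was at 2.37.

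With the rows of a gene summed, edgeR called 29 of 41 members in m6A-RIP, where 66.3% of all genes were called. Of these 24 rose, where 32.5% of all genes did, and 5 fell, where 33.8% did. The median was 0.17, against 0.0070 over all genes. With total counts alone, which put the median of all genes at -0.095, 18 rose and 7 fell. The members' libraries did not overlap between groups in 28 of 41 genes, a smaller share than the 82.2% of all genes.

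The 4 members that rose in m6A-RIP with the smallest p had also risen in RNA. Rps2 was at 668 and 671 against 961 and 1027 CPM (0.67 ± 0.041, adjusted p = 2.8e-08). Rps25, a small subunit protein that some viral RNAs need for initiation, was at 718 and 746 against 871 and 892 CPM (0.37 ± 0.038, adjusted p = 3.0e-06). Rpl36 was at 313 and 304 against 373 and 372 CPM (0.37 ± 0.039, adjusted p = 3.5e-06), and Rpl35, beside the exit tunnel, at 715 and 728 against 842 and 859 CPM (0.34 ± 0.037, adjusted p = 4.4e-06). Their groups did not overlap.

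Of the 5 members that fell in m6A-RIP, 4 had low m6A-RIP values. Rps13 was at 8.33 and 8.48 CPM in control libraries against 3.24 and 3.14 CPM in Lin28a+ libraries (-1.29 ± 0.18, adjusted p = 4.7e-05). Rpl39, a small protein of the exit tunnel, was at 8.42 and 9.88 against 4.63 and 2.79 CPM (-1.22 ± 0.23, adjusted p = 0.00049). Rps6, the subunit that S6 kinases phosphorylate, was at 9.14 and 8.62 against 5.18 and 4.04 CPM (-0.86 ± 0.18, adjusted p = 0.0013). In all 3 genes the Lin28a+ libraries lay below both control libraries.

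Rpl15 was at 13.9 and 14.7 against 7.96 and 10.2 CPM (-0.54 ± 0.15, adjusted p = 0.0081), and Rpl22l1 at 129 and 136 against 111 and 115 CPM (-0.13 ± 0.045, adjusted p = 0.023). The call of Rpl22l1 was lost with rows tested in place of gene sums (-0.077 ± 0.053, adjusted p = 0.222) and under DESeq2 (adjusted p = 0.0849). Of the 6 members under 20 CPM in both group means, a limit chosen after the values were seen, 4 fell and 0 rose. Of the 35 others 24 rose and 1 fell.

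To ask whether m6A-RIP moved by more or less than RNA, both assays entered 1 edgeR model, and the interaction of assay and cells gives the log2 difference between the changes. Of the 41 members 11 were called, where 7.14% of all genes were. Of these, 10 were lower, where 4.09% of all genes were, and 1 was higher, where 3.05% were. The median was -0.14, against -0.028 over all genes, and 34 of 41 members lay below 0. The count fell to 7 without control input replicate 2 or without 1 of the Lin28a+ input libraries (library a), and to 8 under DESeq2.

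Rps13 (-1.57 ± 0.091, adjusted p = 2.7e-06), Rps6 (-1.17 ± 0.10, adjusted p = 5.5e-05) and Rpl15 (-0.97 ± 0.10, adjusted p = 0.00022) had the smallest p of the lower members, and Rpl39 was at -1.49 ± 0.19 (adjusted p = 0.00071). In each of these 4 genes the RNA rose while the m6A-RIP fell. The input RNA of Rps13 was at 232 and 227 against 282 and 278 CPM, of Rps6 at 1164 and 1179 against 1446 and 1457 CPM, and of Rpl15 at 828 and 868 against 1162 and 1159.9 CPM. Rpl5 was the 1 member higher relative to input (0.44 ± 0.089, adjusted p = 0.012), with m6A-RIP at 294 and 310 against 333 and 324 CPM. No member was called higher without control input replicate 1 or without Lin28a+ input library b.

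**Figure D3:**
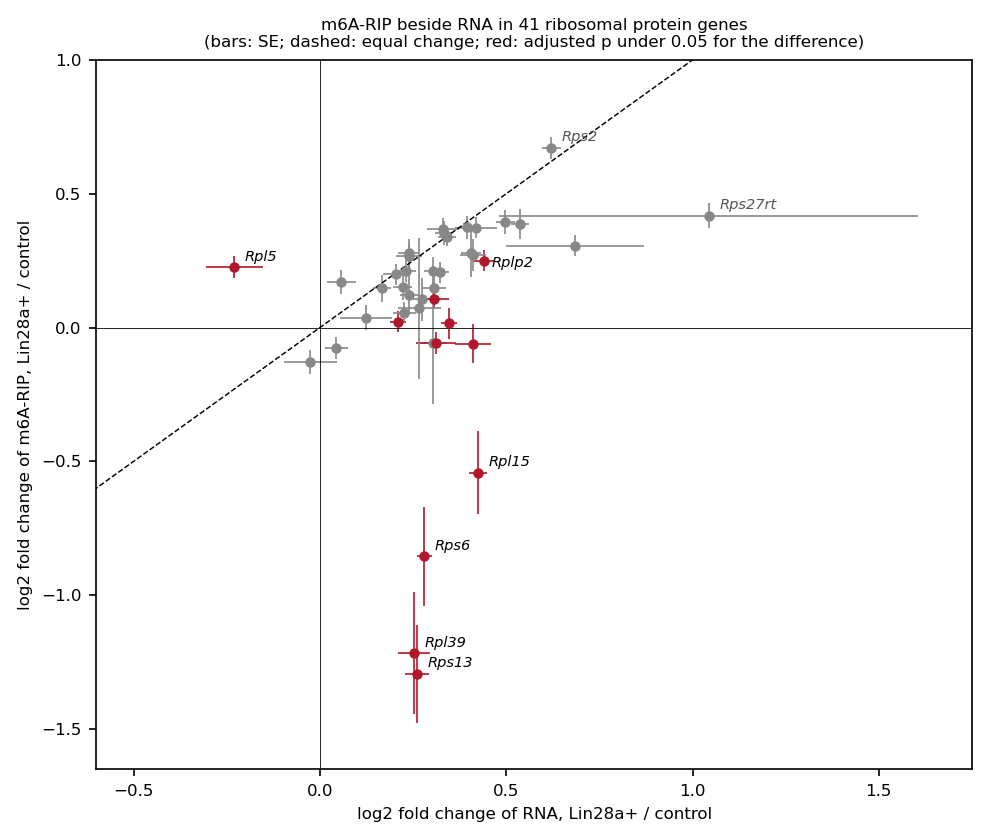
The log2 fold change of m6A-RIP (y axis) against that of RNA (x axis) between Lin28a+ and control MuSCs for 41 members, with SE bars and a dashed line of equal change. Points in red passed the adjusted test of the difference; most members lie on or just below the line, and Rps13, Rpl39, Rps6 and Rpl15 lie far below it.

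Peaks of Lin28a-RIP and Igf2bp3-RIP carry positions, so it could be seen where those named for a member lie. RIP-seq pulls down a protein with the RNA it holds, and a peak marks a stretch where reads pile up. Lin28a-RIP had 17 peaks named for 4 of the 86 members, among them Rps6 (9), Rps13 (6) and Rps27l (1). They held 0.0298% (95% Wilson interval 0.0293 to 0.0304) and 0.0299% (0.0293 to 0.0304) of the counts of the 2 libraries. None of the 17 overlapped the RefSeq span of its gene, whereas 86.1% of all 21616 Lin28a-RIP peaks did. Hence 0 members had a Lin28a-RIP peak within their gene, against 17.0% of all input genes.

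The peaks of Rps6, Rps13 and Rps27l lay between 4.12 and 34.2 kb from the gene. The 6 named for Rps13 lay in Pik3c2a, a lipid kinase gene, and summed to 130 and 131 CPM. The 9 named for Rps6 lay in Dennd4c and summed to 118 and 125 CPM. The peak named for Rps27l, chr9:66955752-66956001, lay in Lactb with 4.62 and 4.81 CPM. Further Lin28a-RIP peaks were named for Dennd4c (14) and Pik3c2a (11) themselves.

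Igf2bp3-RIP had 22 peaks named for 6 of the 86 members, where 26.5% of all input genes had a named peak. Of these peaks 1 overlapped its gene, where 80.6% of all 19465 peaks did. Among the others, 8 named for Rps6 lay in Dennd4c, 5 named for Rps13 in Pik3c2a and 5 named for Rpl22l1 in Eif5a2. As a share of each library, the 22 peaks held 0.0410% and 0.0420% against 0.0512% and 0.0562%, most of it from outside the ribosomal protein genes. A peak named for a gene and within it was held by 1 member, Rpl15, where 22.0% of all input genes held one. This peak, chr14:18269287-18269499, was at 115 and 95.2 against 193 and 145 CPM. The Lin28a+ libraries lay above both control libraries, but the difference was not called by edgeR without a replicate block (0.65 ± 0.30, adjusted p = 1.00, 95% interval -0.068 to 1.37). No member peak was called by edgeR without a replicate block, where 0.123% of all peaks were, with 0.0616% higher and 0.0616% lower. Of the 22, 1 had an unadjusted p under 0.05, and DESeq2 also called 0. With the replicate number as a block, edgeR called 2 member peaks, that of Rpl15 among them, where 10.2% of all peaks were called. The labels do not say that a replicate number marks a batch, and this fit is described with the processing. The median of the 22 was 0.23, against -0.013 over all peaks, and 0.022 without Lin28a+ replicate 2.

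A search for peaks of any name within the span of a member found 1 more. The Igf2bp3-RIP peak chr9:64178124-64178437 lies within Rpl4 and is named for Snapc5, the next gene. It was at 531 and 244 against 571 and 287 CPM, with overlapping groups (0.12, 95% interval -1.07 to 1.32). Together Rpl4 and Rpl15 were the 2 members with an Igf2bp3-RIP peak within their span, and no Lin28a-RIP peak of any name fell within a member.

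**Figure D4:**
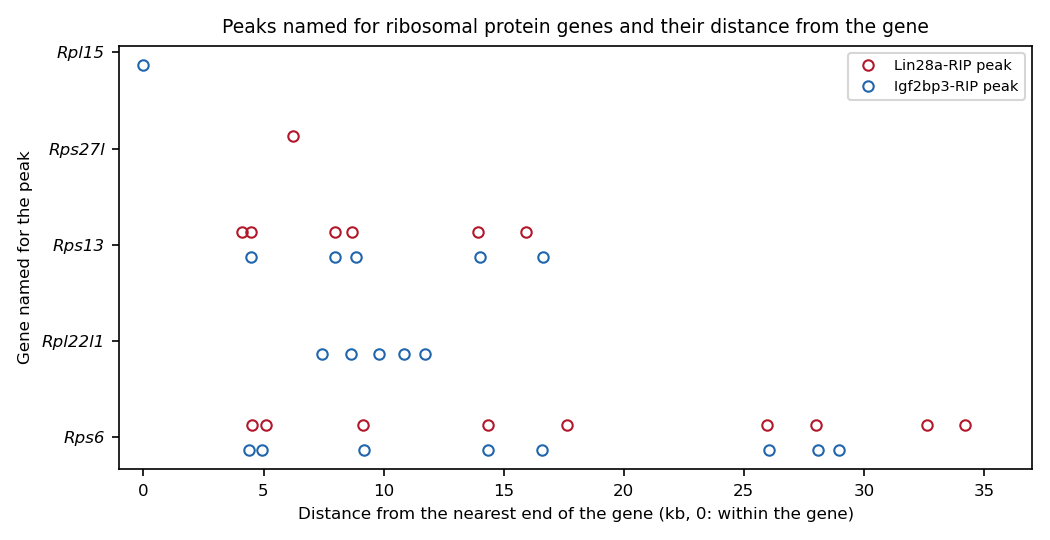
Distance of each peak from the nearest end of the gene it is named for (x axis, kb) for 5 members with a named peak (y axis). Lin28a-RIP peaks are red and Igf2bp3-RIP peaks blue; the Rpl15 peak alone lies at 0, and the others shown lie 4.12 to 34.2 kb away.

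The m6A-RIP table has no positions, but the rows of Rps13 and Rps6 and 1 row of Rps27l carry the transcript names of these distant peaks. Beside the gene at the peaks, the Rps13 row changed by -1.24 ± 0.19 and Pik3c2a RNA by -1.16 ± 0.094, while Rps13 RNA changed by 0.26 ± 0.032. The m6A-RIP row named for Pik3c2a itself changed by -1.30 ± 0.16. The Rps6 row changed by -0.80 ± 0.19 and Dennd4c RNA by -0.69 ± 0.092, while Rps6 RNA changed by 0.28 ± 0.021. Rps13 and Rps6 each have only this row in the m6A-RIP table.

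The Rps27l row of this kind was at 13.6 and 12.97 against 11.9 and 11.0 CPM (-0.064 ± 0.13), beside -0.27 ± 0.13 for Lactb RNA, and its second row changed by 0.41 ± 0.061, as Rps27l RNA did (0.41 ± 0.034). Whether the m6A-RIP reads of these 3 rows come from the neighbouring gene was not tested.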

How the data were processed

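RNA-seq, m6A-RIP, Igf2bp3-RIP and Lin28a-RIP were analysed in 14 libraries of control and Lin28a+ MuSCs. Per the study's methods, reads were trimmed, aligned with HISAT2 2.0.4 to GRCh38, a human build, and m6A peaks were found with MACS2 1.4.3. The submitters' processing notes also list mm10, a mouse build. Positions were read as mouse because 86.1% of Lin28a-RIP and 80.6% of Igf2bp3-RIP peaks overlapped the mouse gene they are named for. The counting program, peak threshold and pooling are not given in the sources used here. The input values, as the authors deposited them, are estimated counts for each gene, unscaled and in part fractional, which were rounded here. The RIP values deposited are whole counts for each peak. Peak positions, given for Lin28a-RIP and Igf2bp3-RIP, were compared with RefSeq GRCm38.p6. The headers of both Lin28a+ columns in the input table carry m6A-RIP library names. They were read as input because the labels of the Lin28a+ input libraries name that table, so which input library each is stays unknown. Both Lin28a+ columns of the m6A-RIP table are headed as replicate 1. These columns are called libraries a and b in each table. Symbols were found for 99.96% of input genes.

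Tests used edgeR 4.0.16 in R 4.3.3 (quasi-likelihood, TMM factors, filterByExpr, Benjamini-Hochberg adjusted p under 0.05 over all features), with TMM factors within each assay for the interaction. They were tested on simulated data. For Igf2bp3-RIP the simulation planted larger changes than any member peak showed, without a replicate effect, so it does not bear on the missing calls there. SEs and 95% intervals were derived from the test's p and degrees of freedom. CPM are per total count. Members and gene lists were chosen with earlier results of these data known, so counts over them are descriptions. Values in every library are given for the 4 rising and 4 falling members with the smallest p in RNA and m6A-RIP, up to 3 a direction relative to input, paralogues, P stalk proteins, Rpsa, members with a peak (some not reported here) and the 3 highest and 3 lowest in input. Others were named after their values were seen. From other lists at most 3 genes are named, by smallest p. Alternatives were DESeq2 1.42.0, other factors and filters, and each library left out. Wilson intervals cover counting error only, because no molecular identifiers tell copies of a molecule apart.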

Additional observations from a re-analysis of the deposited data

How the results depend on the processing

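Across alternatives, 78 values of the counts and medians stayed close to the main value, with its direction, and 9 moved. In RNA 72 to 75 members were called with each library left out, 71 under DESeq2, and the median ranged from 0.28 to 0.32 over these left-out libraries. In m6A-RIP per gene, the median of 0.17 became 0.068 with total counts alone and 0.24 with each row tested in place of the gene sum, and 0.16 to 0.22 with each library left out. Relative to input, 7 to 11 members were called with each library left out, against 11 with all. In Igf2bp3-RIP, 0 member peaks were called with each library left out, and the median ranged from 0.022 to 0.40. With a replicate block 2 member peaks were called (Rpl15, adjusted p = 0.013, and 1 Rpl22l1 peak, adjusted p = 0.031), where 10.2% of all peaks were, and differences between replicates correlated between groups (r = 0.70 over all peaks), but 2 pairs share only a number. No paired analysis was possible for RNA and m6A-RIP because the headers of the Lin28a+ columns do not tell which replicate each is (m6A-RIP names in the input table, the same name for both columns in the m6A-RIP table). With a library left out, the lone library of a group is assumed to vary like the other group. Counting only peaks that overlap the gene, an alternative added after seeing the data, left 0 members with a Lin28a-RIP peak (4 without that rule) and 1 with an Igf2bp3-RIP peak (6). The cause of these moves was not tested, except that the added rule removes distant peaks by construction. Over all features, DESeq2 called 3039 genes in RNA against 6432 by edgeR, 335 against 567 relative to input and 263 peaks against 24 in Igf2bp3-RIP, and over left-out libraries the last 2 counts ranged from 299 to 619 and from 108 to 193. The depth limits Rps27rt, Rps3a2, Rps3a3 and Rpl6l, each under 100 counts in every library.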

Other observations

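Rps4l, which RefSeq lists as a transcribed pseudogene and which is not in the input table, had an m6A-RIP row with 273 and 202 counts in control and 6 and 0 counts in Lin28a+ MuSCs. It was named after its value was seen.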
